A study of Mus musculus with 8 samples.

Results

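An AtT-20 line given the epidermal growth factor receptor (EGFR) was compared with a control line labelled Neo while both received water. AtT-20 is a mouse pituitary tumour line of corticotropes, the cells that make Pomc, the precursor of ACTH, and the series it comes from asks how EGF acts on transcription in these cells. The lines were grown in DMEM with serum, and the water libraries are labelled 3 h in their titles. Neo water and EGFR water each have n = 2 RNA-seq libraries, and the same EGFR line also received EGF for 3 h (n = 2) or for 18 h (n = 2). The members are the protein-coding genes with at least 1 FPKM (fragments per kilobase of transcript, scaled to the mapped fragments of the library) in at least 2 of the 4 water libraries, which were 9140 of the 12193 gene loci with values. The labels do not say how the receptor or Neo was introduced, from which species the receptor came, what drives it, or whether a line is a clone or a pool. A difference between the lines therefore cannot be told apart from one that arose while the lines were made or kept. Nor do the labels say that replicates are separate cultures, and the p-values then weigh only how far these samples differ from each other, a spread that could be technical.

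EGFR is a receptor tyrosine kinase of the cell surface that, once bound by EGF, signals through the ERK, PI3K and STAT routes. Hypoxia-inducible factor (HIF) is a transcription factor whose alpha subunit is hydroxylated and degraded when oxygen is ample, and its targets raise glucose uptake, glycolysis, lactate export and mitochondrial turnover. Cholesterol is made from acetyl-CoA by enzymes whose genes are switched on together by SREBP factors when sterols in the endoplasmic reticulum run low.

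Within the 9140 genes, log2(FPKM + 1) correlated at r = 0.998 to 0.999 across genes between replicates of the water groups, and at r = 0.996 between the lines. Small RNA loci, which were left out, held 39.0% and 33.2% of all FPKM in the Neo libraries and 30.9% and 31.9% in the EGFR libraries. The label of a corticotrope was checked against 7 markers, of which 5 had values in both lines (Pomc, Tbx19, Neurod1, Pitx1 and Pcsk1). The receptor genes Crhr1 and Avpr1b had none. The summed level of the 5 was 9317 and 9441 FPKM in Neo and 8745 and 8818 FPKM in EGFR. Most of this sum was Pomc, at 8798 and 8929.5 FPKM in Neo and 8240.3 and 8307 FPKM in EGFR. Of 12 markers of other pituitary lineages only Gata2 had values, and 0 of 8 fibroblast, 0 of 6 endothelial and 0 of 8 blood markers did. How the loci with values were chosen is not given, so a marker without values is not shown to be absent. At the edge of the FPKM minimum, Arg2 and Kcnf1 were just inside, with 1.04, 0.800, 1.04 and 1.13 and with 1.10, 1.05, 0.963 and 0.888 FPKM in Neo 1, Neo 2, EGFR 1 and EGFR 2. Map3k13 was just outside, with 1.04, 0.945, 0.955 and 0.978 FPKM in the same libraries.

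The lines differed most in Egfr itself, in a group of hypoxia-induced and glycolytic genes that were lower in the EGFR line, and in cholesterol synthesis genes that were higher in it. By limma on log2(FPKM + 1), with Benjamini-Hochberg adjustment over the 9140 genes, 534 genes (5.84%) were higher and 444 (4.86%) were lower in the EGFR line at an adjusted p below 0.05. Most differences were small: 837 of these 978 genes (85.6%) differed by less than 1.25-fold, and the median size over the 978 was 0.21 on the log2 scale. At least 1.5-fold, 30 genes (0.328%) were lower and 2 (0.0219%) were higher, and at least 2-fold, 12 (0.131%) were lower and 1 (0.0109%), Egfr, was higher. The second gene higher by 1.5-fold was a locus named Timm10b on chromosome 7 (ENSMUSG00000110234), with 2.15 and 2.28 against 5.04 and 4.38 FPKM, and it lost the call, at an adjusted p of 0.0593 without EGFR 1. Libraries of the lines did not overlap for any of the 978 genes, but the same held for 33.5% of all genes on the higher side and 25.6% on the lower side.

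The counts depended on single libraries. Without EGFR 1, 85 genes were higher and 142 lower. Without EGFR 2 these counts were 108 and 153, without Neo 1 203 and 200, and without Neo 2 272 and 388. In all 4 of these fits 162 genes (1.77%) kept their call, 54 higher (0.591%) and 108 lower (1.18%). Of the 108 lower genes, 36 belonged to the lists of glycolysis and of the HIF pathway, which together had 77 genes tested, and of the 54 higher genes 15 belonged to the cholesterol list of 31. Of the 30 genes lower by at least 1.5-fold, 20 were in those 77. Unless stated otherwise, genes named below as higher or lower kept the call in all 4 fits. A count given with a water library left out refers to these 4 fits. Each count for a gene list is to be read beside the shares over all genes, 5.84% higher and 4.86% lower. The EGF libraries enter the comparison only through the shared spread, and fits without 1 of them are named as such. Values in brackets are the log2 fold change of EGFR over Neo ± its SE, and levels joined by "against" are those of Neo first and EGFR second.

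**Figure D1:**
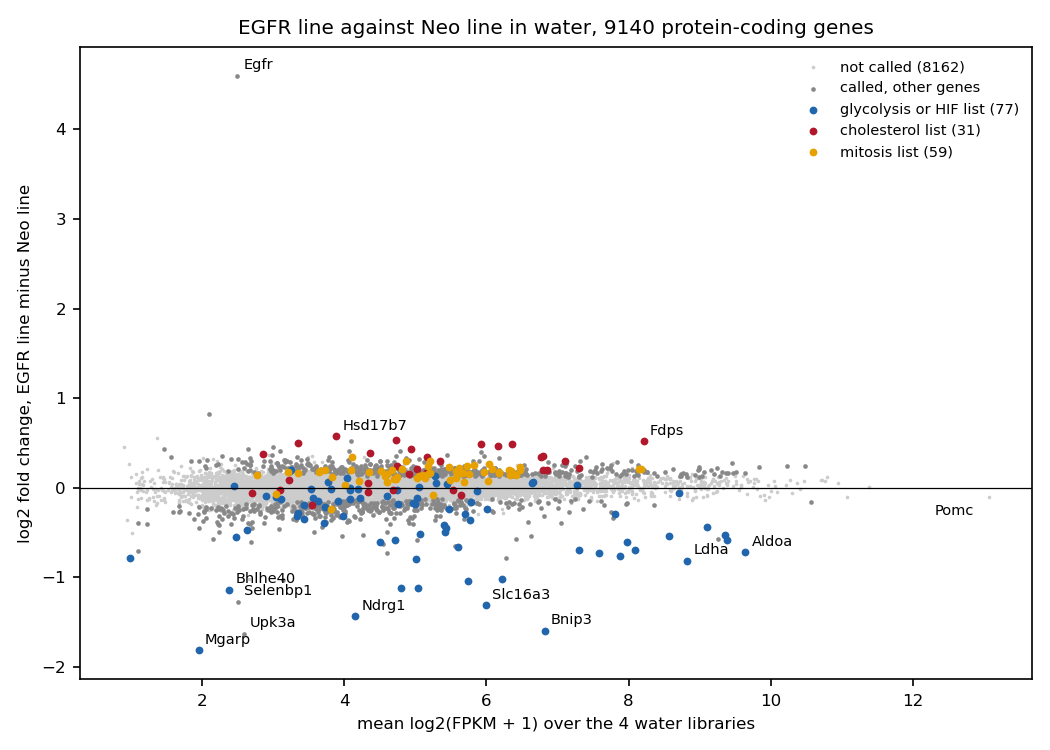
Each point is 1 of 9140 protein-coding genes, with its mean level over the 4 water libraries, as log2(FPKM + 1), on the x axis and its log2 fold change between the lines on the y axis. Egfr stands alone at 4.60, blue points of the glycolysis and HIF lists reach down to -1.82 across the whole range of levels, and red points of the cholesterol list lie up to 0.57.

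Egfr (ENSMUSG00000020122, on the plus strand of chromosome 11 between 16752203 and 16918158; mm10, 1-based) was at 0.227 and 0.0663 FPKM in the Neo libraries and 25.9 and 27.5 FPKM in the EGFR libraries. Both EGFR libraries were far above both Neo libraries, where the value was close to 0. The log2 fold change was 4.60 ± 0.07 (SE; 95% CI 4.45 to 4.75; limma adjusted p = 1.21e-11). On this scale a change from a level near 0 is understated, and the value is that of the mouse locus, whatever species the introduced receptor came from. Among the other ERBB receptors, only Erbb3, a kinase-impaired partner of the family, had values, at 5.64 and 5.55 FPKM in the Neo libraries and 5.59 and 5.55 FPKM in the EGFR libraries. The libraries overlapped, and the 95% CI of the log2 fold change was -0.12 to 0.11. Of 21 tested genes of ERBB signalling, 1 was higher (Egfr) and 4 were lower, with a median of -0.01 beside 0.01 over all 9140 genes. Without Neo 1, EGFR 1 or EGFR 2, 2 of these 4 remained lower, as Grb2 and Adam10 lost the call.

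The lower genes of the receptor pathway were an adapter and a feedback inhibitor. Grb7, an SH2 adapter of receptor tyrosine kinases, was at 20.8 and 19.6 FPKM in the Neo libraries and 15.7 and 15.5 FPKM in the EGFR libraries. Errfi1, which binds the EGFR kinase domain and inhibits it, was at 12.7 and 12.5 FPKM in the Neo libraries and 9.86 and 9.70 FPKM in the EGFR libraries. In both genes each EGFR library was below each Neo library. The log2 fold changes were -0.35 ± 0.05 (limma adjusted p = 0.00154) and -0.33 ± 0.05 (limma adjusted p = 0.00273). The only ligand with values, Hbegf, a heparin-binding growth factor that activates EGFR, was at 6.40 and 6.42 against 6.30 and 6.45 FPKM, with overlapping libraries and a 95% CI of -0.11 to 0.09.

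Of 27 genes of the ERK pathway and its output, 0 were higher and 6 were lower (median -0.06), or 22.2% beside 4.86% of all genes. Without Neo 1, EGFR 1 or EGFR 2 there were 3 lower genes, and without Neo 2 there were 5. Mapk3, which encodes the kinase ERK1, was at 37.1 and 32.8 FPKM in the Neo libraries and 25.7 and 26.7 FPKM in the EGFR libraries, and its log2 fold change was -0.40 ± 0.06 (limma adjusted p = 0.00221). Map2k1, which encodes the kinase MEK1 that activates ERK, was at 49.8 and 50.8 against 42.9 and 42.9 FPKM in Neo and EGFR (-0.23 ± 0.04; limma adjusted p = 0.00383). The small MAF factor gene Maff was at 6.54 and 5.90 against 4.64 and 4.36 FPKM (-0.39 ± 0.06; limma adjusted p = 0.00222). All 3 were lower in both EGFR libraries than in both Neo libraries. The feedback phosphatase genes Dusp4 and Dusp5 did not pass the test, at 30.8 and 29.1 against 29.8 and 28.3 FPKM and at 28.7 and 26.2 against 29.0 and 28.0 FPKM, with 95% CIs of -0.13 to 0.05 and -0.05 to 0.15 on the log2 scale.

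Stat3, the transcription factor gene in the title of the series (ENSMUSG00000004040, on the minus strand of chromosome 11 between 100885098 and 100939540), was at 33.7 and 33.8 FPKM in the Neo libraries and 28.6 and 28.1 FPKM in the EGFR libraries. Both EGFR libraries were below both Neo libraries. The difference was -0.24 ± 0.04 on the log2 scale (95% CI -0.33 to -0.16; limma adjusted p = 0.00322). Socs3, a STAT3 target that inhibits JAK kinases, was at 4.48 and 4.28 FPKM in the Neo libraries and 3.85 and 3.56 FPKM in the EGFR libraries, which do not overlap, and did not pass the test (-0.19 ± 0.06; limma adjusted p = 0.0519). Socs3 did pass with median-ratio scaling (0.0439), a pseudocount of 0.1 (0.0485), no variance trend (0.0388) or the replicate number as a block (0.0437; limma adjusted p). Of 18 genes of STAT factors, their receptors and targets, 0 were higher and 3 lower, Stat3, Pim2 and Junb (median -0.05), and 1 to 2 were lower where a water library was left out: 1 without Neo 1 or EGFR 2, and 2 without Neo 2 or EGFR 1. Pim2 and Junb did not keep the call in all 4 fits. In the main fit 16.7% of this list was lower, beside 4.86% over all genes. The receptor and kinase genes Il6st, Lifr, Jak1, Jak2 and Tyk2 did not pass the test, with log2 fold changes from -0.06 (Jak1) to 0.09 (Il6st).

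Pomc (ENSMUSG00000020660, on the plus strand of chromosome 12 between 3954951 and 3960618) was the most abundant of the genes named here, at 8798 and 8929.5 FPKM in the Neo libraries and 8240.3 and 8307 FPKM in the EGFR libraries. The EGFR libraries were below the Neo libraries, and the difference of -0.10 ± 0.05 (95% CI -0.21 to 0.01) did not pass the test (limma adjusted p = 0.229). It passed as lower after the libraries were scaled to a common sum (0.0224) and when only the 4 water libraries were fitted (0.0163; limma adjusted p). Tbx19, the T-box factor of corticotropes that drives Pomc, was at 96.7 and 88.9 FPKM in the Neo libraries and 88.4 and 92.4 FPKM in the EGFR libraries. Its libraries overlapped between the lines, and the 95% CI was -0.14 to 0.06. Of 21 genes of corticotrope identity and secretion, 0 were higher and 4 lower (Vgf, Neurod1, Pcsk1n and Sstr5), with a median of -0.09. All 4 were lost in at least 1 of the fits without a water library, which left 2 lower genes without Neo 1 or Neo 2 and 1 without EGFR 1 or EGFR 2. Other settings raised the count, to 8 with median-ratio scaling or only the 4 water libraries, 9 with a common sum and 7 without an EGF 3 h library. Vgf, a granin-like precursor of secreted peptides, was at 36.5 and 33.0 against 28.6 and 29.4 FPKM (-0.25 ± 0.05; limma adjusted p = 0.00855, and 0.0759 without EGFR 1). Neurod1, a basic helix-loop-helix factor that acts on Pomc, was at 12.9 and 13.5 against 11.3 and 10.8 FPKM (-0.24 ± 0.05; limma adjusted p = 0.0112, 0.0538 without Neo 2 and 0.0968 without EGFR 2). All 11 tested genes of the hormone and its processing had negative log2 fold changes, from -0.25 to -0.01, and 2 of them were called. Gata2, the 1 gene of other pituitary lineages with values, was at 13.7 and 13.4 against 10.5 and 11.7 FPKM (-0.27 ± 0.06; limma adjusted p = 0.0194), and lost the call without Neo 1 (0.0936), Neo 2 (0.0538) or EGFR 1 (0.158). In bulk libraries, fewer cells with a transcript and less of it per cell cannot be told apart.

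Genes of the glycolysis and HIF lists together made up 20 of the 30 decreases of at least 1.5-fold. The binding core of HIF reads ACGTG or GCGTG. Promoters of strongly lower genes are shown to place these letters, searched on both strands, in capitals (a reverse-strand match reads CACGT or CACGC). The rule took the 6 lower genes of the glycolysis and HIF lists with the largest decrease that kept the call and have a RefSeq entry. Of these, Ankrd37 is not shown, as its entry starts 5857 bases from the 5′ end of the deposited locus. That entry held 4 matches. The sequences are the 250 bases before the RefSeq start site (GRCm38.p6), written 5′ to 3′ on the strand of the gene, and those start sites lie 0 to 587 bases from the 5′ end of the deposited locus.
Mgarp, chr3:51396548-51396797, minus strand: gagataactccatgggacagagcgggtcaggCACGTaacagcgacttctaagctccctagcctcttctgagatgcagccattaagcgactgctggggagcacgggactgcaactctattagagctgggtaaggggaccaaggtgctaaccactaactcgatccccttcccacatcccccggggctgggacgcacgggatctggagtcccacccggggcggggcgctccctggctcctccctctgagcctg
Bnip3, chr7:138909507-138909756, minus strand: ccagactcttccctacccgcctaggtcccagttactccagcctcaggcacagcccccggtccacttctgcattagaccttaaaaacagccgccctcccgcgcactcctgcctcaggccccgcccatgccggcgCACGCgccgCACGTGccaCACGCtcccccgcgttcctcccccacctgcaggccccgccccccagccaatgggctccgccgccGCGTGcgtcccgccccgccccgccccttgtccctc
Slc16a3, chr11:120948817-120949066, plus strand: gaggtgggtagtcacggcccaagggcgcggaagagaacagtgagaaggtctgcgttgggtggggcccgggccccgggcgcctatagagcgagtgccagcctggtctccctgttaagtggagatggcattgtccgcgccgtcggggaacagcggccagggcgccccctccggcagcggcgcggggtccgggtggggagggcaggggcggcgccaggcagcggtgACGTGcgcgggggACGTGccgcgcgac
Pfkl, chr10:78009808-78010057, minus strand: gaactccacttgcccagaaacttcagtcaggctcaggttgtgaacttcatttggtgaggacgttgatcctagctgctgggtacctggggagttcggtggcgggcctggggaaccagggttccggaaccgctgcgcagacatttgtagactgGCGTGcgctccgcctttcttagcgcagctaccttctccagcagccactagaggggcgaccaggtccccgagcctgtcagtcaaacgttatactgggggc
Pdk1, chr2:71872974-71873223, plus strand: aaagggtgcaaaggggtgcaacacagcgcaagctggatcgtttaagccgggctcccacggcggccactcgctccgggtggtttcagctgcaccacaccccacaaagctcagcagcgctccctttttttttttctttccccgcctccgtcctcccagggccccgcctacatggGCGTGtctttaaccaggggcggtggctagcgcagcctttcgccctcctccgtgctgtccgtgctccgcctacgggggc
The promoter of Bnip3 held 5 matches, some of which overlap each other, that of Slc16a3 held 2, and those of Mgarp, Pfkl and Pdk1 held 1 each. In Bnip3 the match nearest the start site began 35 bases before it, and in Slc16a3 14 bases before it. The core is short and common. In windows of 300 bases that add 50 bases after the start site, 29 of the 40 promoters of lower members of the glycolysis and HIF lists held it (72.5%), against 20 of 26 promoters of their members that were not called (76.9%), 67.2% of the 7019 promoters of tested genes and 43.8% of all 32851 promoters in the table. A match is a run of letters, not evidence of binding.

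Of the 46 tested genes of the HIF list, 30 were lower, 0 were higher and 16 were not called, with a median of -0.26 on the log2 scale. Of the 30, 20 kept the call in all 4 fits with a water library left out. There were 23 lower without Neo 1, 28 without Neo 2, 22 without EGFR 1 and 21 without EGFR 2.

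The genes of the mitochondria and of cell death fell furthest. Mgarp (ENSMUSG00000037161, on the minus strand of chromosome 3 between 51388412 and 51396738), whose product sits on mitochondria and takes part in their transport, was at 6.23 and 6.36 FPKM in the Neo libraries and 0.916 and 1.24 FPKM in the EGFR libraries. Bnip3 (ENSMUSG00000078566, on the minus strand of chromosome 7 between 138890836 and 138909519), a receptor for the removal of mitochondria by autophagy, was at 191 and 201 FPKM in the Neo libraries and 60.4 and 68.0 FPKM in the EGFR libraries. In both genes the groups were far apart, and in Mgarp the EGFR libraries were near the 1 FPKM minimum. Their log2 fold changes were -1.82 ± 0.09 (limma adjusted p = 7.52e-07) and -1.60 ± 0.07 (limma adjusted p = 4.11e-07). Of the Bnip3 transcript, 94.2% is at least 95% identical to transcripts of other annotated genes, mostly predicted ones, so its level is uncertain. Fam162a, a mitochondrial protein linked to hypoxic cell death, was at 192 and 208 against 123 and 124 FPKM (-0.69 ± 0.04). Of 6 tested genes in this group 5 were lower. Fundc1, another mitophagy receptor, was the exception, at 12.1 and 12.7 against 12.8 and 13.1 FPKM (95% CI -0.08 to 0.19).

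In the groups of the list named for secreted and surface proteins and for protein modification the pattern was similar. Ndrg1 (ENSMUSG00000005125, on the minus strand of chromosome 15 between 66929321 and 66969640), a stress-induced gene widely used as a marker of hypoxia, was at 29.8 and 26.9 FPKM in the Neo libraries and 10.2 and 9.49 FPKM in the EGFR libraries. P4ha1, the catalytic subunit of the prolyl hydroxylase that modifies collagen, was at 100.4 and 109.8 FPKM in the Neo libraries and 50.6 and 51.9 FPKM in the EGFR libraries. Ero1l, an oxidase that drives disulfide bond formation in the endoplasmic reticulum, was at 41.3 and 41.9 against 23.7 and 23.3 FPKM. No EGFR library of these genes reached a Neo library. The log2 fold changes were -1.44 ± 0.08 (limma adjusted p = 1.49e-06), -1.02 ± 0.05 (limma adjusted p = 7.52e-07) and -0.80 ± 0.04 (limma adjusted p = 7.96e-07). All 7 tested genes of the group named for secreted and surface proteins were lower, from -1.44 to -0.19 (Stc2). Ndrg1, at -1.44, was placed in this group although its product is mainly cytoplasmic. Not all of the 7 kept the call in all 4 fits: Ndrg1, Mif and Stc1 did and Stc2 did not. Of the Mif transcript 93.4% is shared with other annotated genes, so its level is uncertain. Vegfa, the angiogenic growth factor, was at 73.0 and 65.5 against 58.1 and 58.9 FPKM (-0.24 ± 0.05; limma adjusted p = 0.0181) and lost the call without Neo 1 (0.110), EGFR 1 (0.112) or EGFR 2 (0.0901).

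Regulators of transcription and chromatin also differed. Bhlhe40, a basic helix-loop-helix repressor of the clock that hypoxia induces, was at 7.03 and 6.46 FPKM in the Neo libraries and 2.92 and 2.15 FPKM in the EGFR libraries (-1.14 ± 0.09; limma adjusted p = 3.35e-05). Ankrd37, an ankyrin repeat gene induced by HIF, was at 76.5 and 75.5 FPKM in the Neo libraries and 36.9 and 35.9 FPKM in the EGFR libraries (-1.04 ± 0.10; limma adjusted p = 8.90e-05), and 26.4% of its exon bases lie in another gene. Both EGFR libraries were below both Neo libraries in each. Of 6 genes in the histone demethylase group of the list 4 were lower. The H3K9 demethylase Kdm3a was at 27.9 and 26.4 against 17.6 and 17.4 FPKM (-0.61 ± 0.05). The H3K4 demethylase Kdm5b was at 10.4 and 10.2 against 8.23 and 7.98 FPKM (-0.31 ± 0.05). The other 2, Kdm4b and Jmjd6, had log2 fold changes of -0.35 and -0.24. Kdm4b lost the call without EGFR 2 (limma adjusted p = 0.0518) and Jmjd6 without EGFR 1 (limma adjusted p = 0.0544). Of 6 genes of glycogen and lipid stores 3 were lower, among them Pgm2 at 60.2 and 60.1 against 37.1 and 38.4 FPKM (-0.66 ± 0.04), which interconverts glucose phosphates, and the glycogen synthase gene Gys1 at 14.4 and 13.9 against 10.6 and 10.4 FPKM (-0.40 ± 0.05).

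The oxygen-sensing machinery itself differed in 1 of 6 genes. Egln1, the main prolyl hydroxylase that marks HIF for degradation and itself a HIF target, was at 48.9 and 50.6 FPKM in the Neo libraries and 36.5 and 35.7 FPKM in the EGFR libraries. Its EGFR libraries were below both Neo libraries (-0.45 ± 0.04; limma adjusted p = 4.79e-05). Hif1a, the oxygen-regulated subunit, was at 41.1 and 43.3 FPKM in the Neo libraries and 43.9 and 43.0 FPKM in the EGFR libraries, with overlapping libraries and a 95% CI of -0.05 to 0.13. Its partner Arnt was at 11.7 and 10.8 against 10.6 and 10.0 FPKM (95% CI -0.23 to -0.01), and Vhl, which recruits the ligase that degrades it, was at 18.3 and 16.6 against 18.3 and 16.4 FPKM (95% CI -0.17 to 0.15). Neither passed the test. Protein levels and oxygen were not measured in these libraries.

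Genes from glucose uptake through glycolysis to lactate export were lower in the EGFR line. Of 31 tested genes 18 were lower and 2 higher, with a median of -0.30. Of the 18, 16 kept the call in all 4 fits, and the count of lower genes was 16 to 18 with a water library left out. The 2 higher genes, Pfkfb2 (0.20) and Pdhx (0.13), did not keep it: without Neo 1, EGFR 1 or EGFR 2 neither was called, and without Neo 2 1 was. Slc2a1, the glucose transporter GLUT1, was at 32.3 and 29.9 FPKM in the Neo libraries and 19.3 and 21.6 FPKM in the EGFR libraries (-0.58 ± 0.06; limma adjusted p = 1.78e-04). Hk2, the inducible hexokinase, was at 50.2 and 49.8 against 35.5 and 35.0 FPKM (-0.49 ± 0.05). In both, the EGFR libraries lay below the Neo libraries.

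At the committing step, 3 genes encode phosphofructokinase. Pfkl (ENSMUSG00000020277, on the minus strand of chromosome 10 between 77986947 and 78010083), its liver type, was at 45.6 and 49.6 FPKM in the Neo libraries and 20.1 and 22.6 FPKM in the EGFR libraries. The EGFR libraries were below the Neo libraries by a wide margin (-1.12 ± 0.06; limma adjusted p = 2.12e-06). Pfkp, its platelet type and the most abundant of the 3, was at 251 and 246 FPKM in the Neo libraries and 199 and 205 FPKM in the EGFR libraries (-0.30 ± 0.03; limma adjusted p = 6.35e-04). Pfkm, its muscle type, was at 16.9 and 16.6 against 15.5 and 15.2 FPKM and did not pass the test (-0.12 ± 0.04; limma adjusted p = 0.0759).

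Several abundant enzymes downstream were lower. Gpi1, glucose phosphate isomerase, was at 245 and 249.7 against 146 and 152 FPKM (-0.73 ± 0.04). Aldoa, aldolase A, was at 1026 and 1027 against 615 and 629.8 FPKM (-0.72 ± 0.04), and Tpi1, triosephosphate isomerase, at 445 and 465 against 310.3 and 317 FPKM (-0.54 ± 0.04). Neo and EGFR libraries did not overlap in any of the 3. Gapdh, Pgk1, Pgam1, Eno1 and Pkm, the enzymes of the remaining steps to pyruvate, had log2 fold changes of -0.44, -0.70, -0.61, -0.76 and -0.53. These 5 have near-identical copies in the genome that share 43.1% to 88.0% of the transcript (88.0% for Gapdh), so reads could be split between the copies and their levels are uncertain. In the glycolysis and HIF lists, 36 lower genes kept the call. Of these, 26 share less than 20% of their transcript or exons with other genes. The median log2 fold change of those 26 was -0.67, but they were picked as lower. Over all 77 tested genes of the 2 lists it was -0.28.

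Pyruvate's fate followed the same direction at 3 genes. Ldha, the lactate dehydrogenase subunit that favours lactate formation, was at 580.4 and 622 FPKM in the Neo libraries and 338 and 344 FPKM in the EGFR libraries (-0.82 ± 0.04; limma adjusted p = 8.15e-07). Slc16a3 (ENSMUSG00000025161, on the plus strand of chromosome 11 between 120948480 and 120960868), the lactate exporter MCT4, was at 101 and 98.2 FPKM in the Neo libraries and 38.3 and 40.9 FPKM in the EGFR libraries (-1.31 ± 0.05; limma adjusted p = 3.31e-07). Pdk1, the kinase that blocks entry of pyruvate into the TCA cycle, was at 39.2 and 40.9 FPKM in the Neo libraries and 18.8 and 17.1 FPKM in the EGFR libraries (-1.12 ± 0.06; limma adjusted p = 1.37e-06). All EGFR libraries of these genes were below all Neo libraries. Slc16a1, the transporter MCT1, was at 36.4 and 38.3 against 38.8 and 38.8 FPKM (95% CI -0.04 to 0.15), and Pdha1, a subunit of pyruvate dehydrogenase, was at 31.7 and 32.4 against 32.4 and 32.0 FPKM (95% CI -0.07 to 0.09). Neither passed the test. Of 23 genes in the TCA cycle list 1 was higher and 0 were lower (median 0.02). Among 77 respiratory chain genes 5 were higher and 2 lower (median 0.04). The shares were 4.35% and 0% in the TCA cycle list and 6.49% and 2.60% in the respiratory chain list. Over all genes they were 5.84% and 4.86%. Uqcrq, a subunit of complex III, was at 157 and 146 against 113 and 117 FPKM (-0.39 ± 0.05; limma adjusted p = 6.02e-04) and kept the call. In each fit without a water library 0 respiratory chain genes were higher. Without an EGF 3 h library 13 were, with only the 4 water libraries 14, with a common sum 11 (and 7 lower) and with median-ratio or quantile scaling 9 (and 4 or 7 lower). In the TCA cycle list, up to 3 genes were higher under these settings. Idh1, the 1 called in the main fit, encodes a cytosolic enzyme rather than one of the cycle itself. It lost the call without EGFR 1 (log2 fold change 0.20) or EGFR 2 (0.23).

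**Figure D2:**
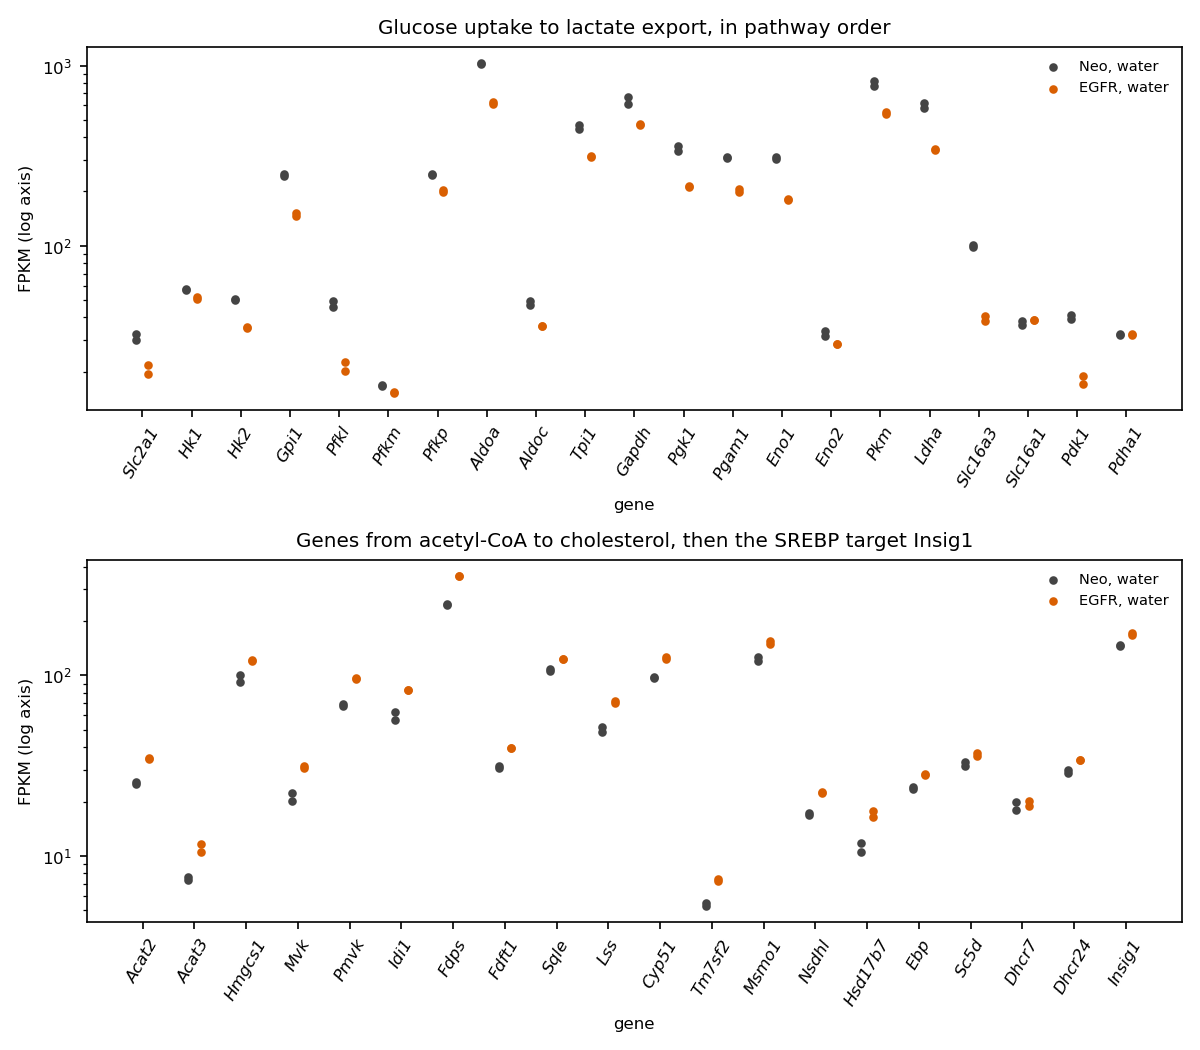
Levels (FPKM, log axis) of genes from glucose uptake to lactate export (top) and from acetyl-CoA to cholesterol (bottom), with 1 point for each Neo (grey) and EGFR (orange) water library and genes in pathway order. The orange points lie below the grey ones at most glycolytic genes, at Slc16a1 and Pdha1 they do not, and in the bottom panel they lie above the grey ones at each gene but Dhcr7.

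The cholesterol pathway was higher in the EGFR line. Promoters are shown for the 3 genes of the list with the largest increase among those that kept the call and have an entry in the RefSeq table, and all 3 hold the same short word. CCAAT, the binding letters of the factor NF-Y, which is known to act beside SREBP, is in capitals on either strand (ATTGG on the reverse strand). This motif was chosen after the sequences were seen. The sequences are again the 250 bases before the RefSeq start site (GRCm38.p6), 5′ to 3′ on the strand of the gene.
Hsd17b7, chr1:169969206-169969455, minus strand: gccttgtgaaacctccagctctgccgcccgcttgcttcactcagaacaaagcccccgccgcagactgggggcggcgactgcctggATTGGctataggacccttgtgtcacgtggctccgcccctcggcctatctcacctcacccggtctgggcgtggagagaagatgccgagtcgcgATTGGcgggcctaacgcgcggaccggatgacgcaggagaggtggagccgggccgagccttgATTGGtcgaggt
Mvk, chr5:114444019-114444268, plus strand: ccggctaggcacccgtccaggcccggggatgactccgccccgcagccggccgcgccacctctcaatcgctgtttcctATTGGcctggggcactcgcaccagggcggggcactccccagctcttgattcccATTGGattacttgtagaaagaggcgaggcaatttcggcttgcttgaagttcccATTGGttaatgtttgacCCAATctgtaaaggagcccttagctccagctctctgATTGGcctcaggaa
Lss, chr10:76531355-76531604, plus strand: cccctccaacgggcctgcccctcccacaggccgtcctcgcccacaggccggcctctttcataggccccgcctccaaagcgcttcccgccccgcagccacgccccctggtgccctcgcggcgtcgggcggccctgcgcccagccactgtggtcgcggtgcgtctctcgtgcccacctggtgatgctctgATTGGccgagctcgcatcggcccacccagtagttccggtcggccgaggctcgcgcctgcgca
These promoters held 3 (Hsd17b7), 5 (Mvk) and 1 (Lss) of the matches. Because the word was taken up after these promoters were seen, they are left out of its count. In windows of 300 bases, 10 of the 11 other promoters of higher cholesterol genes held CCAAT (90.9%, mean 1.82 per promoter), beside 4 of 8 promoters of members that were not called, 40.4% of the promoters of tested genes (mean 0.66) and 37.4% of all promoters in the table. These shares are a description with no test. The letters TCACNCCAC of a classical sterol response element were in none of the 3 printed promoters, in 1 of the 14 promoters of higher cholesterol genes (7.14%) and in 1.05% of the promoters of tested genes. This window and spelling cover only part of what the factors can bind.

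Of 31 tested genes of cholesterol synthesis and its control, 21 were higher and 0 lower, with a median of 0.24, and 15 kept the call in all 4 fits. The count of higher genes was 16 to 21 with a water library left out, and without Neo 2 1 gene of the list was lower. In the mevalonate steps 8 of 9 genes were higher. Mvk (ENSMUSG00000041939, on the plus strand of chromosome 5 between 114444269 and 114460591), mevalonate kinase, was at 22.2 and 20.2 FPKM in the Neo libraries and 31.3 and 30.6 FPKM in the EGFR libraries. Pmvk, which adds the next phosphate, was at 67.5 and 69.1 FPKM in the Neo libraries and 96.9 and 95.4 FPKM in the EGFR libraries. Hmgcs1, an early enzyme of the pathway that makes HMG-CoA, was at 91.7 and 100.1 against 122 and 121 FPKM. Both EGFR libraries were above both Neo libraries in each, with log2 fold changes of 0.53 ± 0.06 (limma adjusted p = 4.17e-04), 0.49 ± 0.04 (limma adjusted p = 1.49e-05) and 0.34 ± 0.04 (limma adjusted p = 0.00134). Fdps, farnesyl diphosphate synthase and the most abundant enzyme of the pathway, was at 246 and 248 against 354 and 353 FPKM (0.52 ± 0.04), and 76.8% of its transcript is shared with other annotated genes.

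From squalene to cholesterol 11 of 12 genes were higher. Hsd17b7 (ENSMUSG00000026675, on the minus strand of chromosome 1 between 169949535 and 169969241), a reductase of sterol demethylation, was at 11.8 and 10.5 FPKM in the Neo libraries and 16.4 and 17.8 FPKM in the EGFR libraries (0.57 ± 0.06; limma adjusted p = 2.55e-04). Lss, which closes the sterol rings, was at 52.1 and 48.9 FPKM in the Neo libraries and 72.2 and 70.0 FPKM in the EGFR libraries (0.49 ± 0.06; limma adjusted p = 9.70e-04). Cyp51, the sterol demethylase, was at 96.6 and 97.9 against 123 and 127 FPKM (0.36 ± 0.03). The EGFR libraries were the higher ones throughout. Nsdhl, Tm7sf2, Fdft1 and Msmo1 rose by 0.38, 0.38, 0.34 and 0.30 on the log2 scale, and 54.7% of the Fdft1 transcript is shared with other annotated genes. Of the 15 higher genes of the list that kept the call, 10 share less than 20% of their transcript or exons with other genes. Acat2, Acat3, Fdft1, Fdps and Idi1 share more. The median log2 fold change of the 10 was 0.38, but they were picked as higher. Over all 31 tested genes of the list it was 0.24. Dhcr7, which catalyses the last step of the pathway, did not pass the test, at 19.8 and 18.0 FPKM in the Neo libraries and 20.3 and 18.9 FPKM in the EGFR libraries, and its libraries overlapped (95% CI -0.06 to 0.16).

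Regulators of the pathway showed a mixed picture. Insig1, which retains SREBP in the endoplasmic reticulum and is a target of it, was at 146 and 145 against 173 and 167 FPKM (0.22 ± 0.03; limma adjusted p = 0.00384, and 0.0658 without EGFR 1). The genes of the factors did not pass the test: Srebf2 was at 20.3 and 18.7 against 18.2 and 19.3 FPKM (95% CI -0.16 to 0.05), Srebf1 at 50.1 and 51.2 against 47.5 and 47.9 FPKM (95% CI -0.20 to 0.03), and their escort Scap at 46.5 and 45.1 against 44.8 and 45.4 FPKM (95% CI -0.10 to 0.05). Of 18 genes of fatty acid and triglyceride synthesis 3 were higher and 1 lower (median 0.04). Elovl6, which lengthens fatty acids, was higher at 14.1 and 13.7 against 17.7 and 17.2 FPKM (0.31 ± 0.05; limma adjusted p = 0.00273). Me1, the malic enzyme that supplies NADPH, was lower at 33.2 and 32.4 against 25.7 and 24.8 FPKM (-0.37 ± 0.04; limma adjusted p = 3.19e-04), with 60.1% of its transcript shared with other annotated genes. The other 2 higher genes, Acss2 and Fads2, did not keep the call, and with a water library left out 1 (Neo 1 or EGFR 1) or 2 (Neo 2 or EGFR 2) genes of the list were higher.

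**Figure D3:**
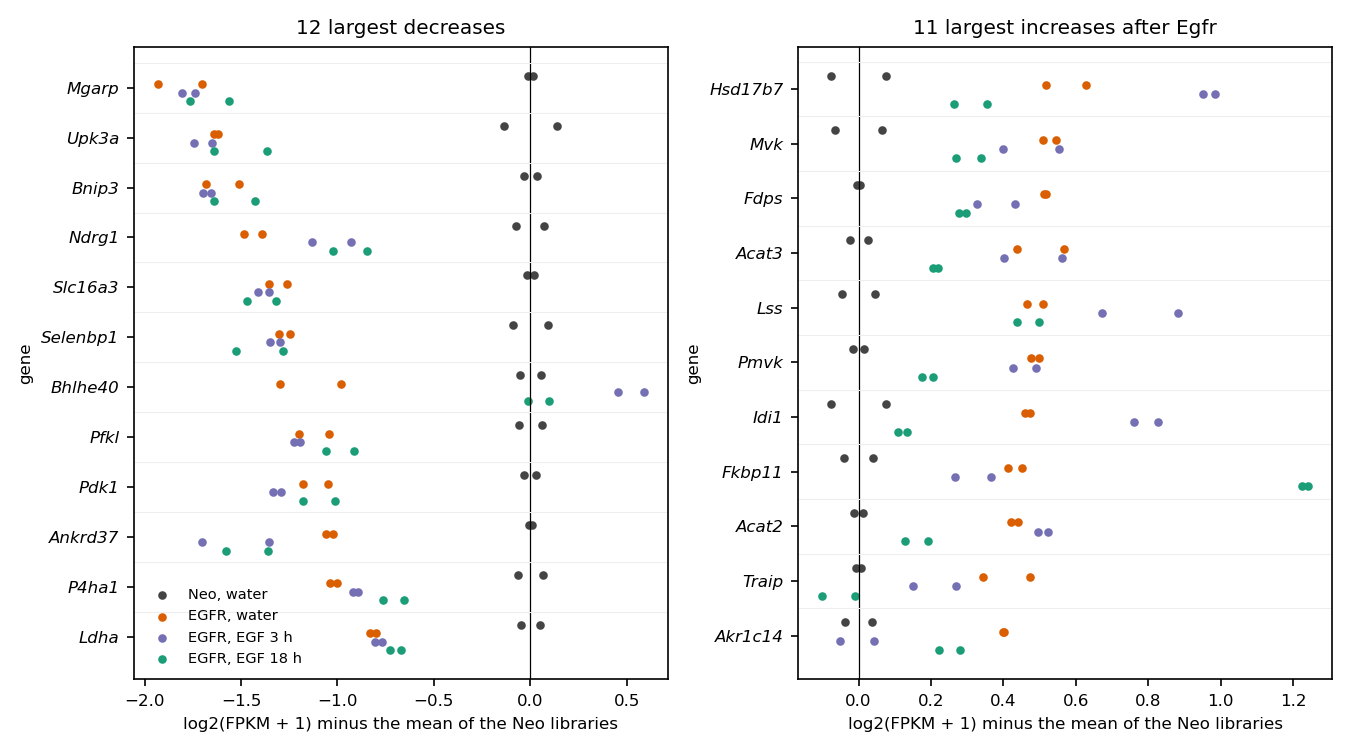
Level of each gene in each of the 8 libraries, as log2(FPKM + 1) minus the mean of the Neo libraries, for the 12 largest decreases (left) and the 11 largest increases after Egfr (right), with colours for the 4 groups. Replicates lie close to each other, and Bhlhe40 in the libraries with EGF lies at or above Neo. The EGFR water points are away from the Neo points in every row, which the rule for these genes required.

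Genes of mitosis were higher by small amounts. Of 59 tested genes 34 were higher and 1 lower (Fzr1, an activator of the anaphase-promoting complex, which lost the call without Neo 1, EGFR 1 or EGFR 2), with a median of 0.17, and 6 kept the call in all 4 fits (Cenpf, Nek2, Spc24, Kif11, Bub1b and Kif20a). The count of higher genes depended on single libraries: 16 without Neo 1, 21 without Neo 2, 7 without EGFR 1 and 11 without EGFR 2. Cenpf, a protein of the outer kinetochore, was at 13.9 and 14.8 FPKM in the Neo libraries and 18.2 and 18.8 FPKM in the EGFR libraries. Nek2, a kinase that separates centrosomes, was at 32.2 and 32.6 FPKM in the Neo libraries and 40.4 and 39.6 FPKM in the EGFR libraries. Kif11, the motor that pushes spindle poles apart, was at 46.8 and 48.2 against 57.3 and 55.6 FPKM. In each the EGFR libraries were above the Neo libraries, by 0.35 ± 0.04, 0.30 ± 0.04 and 0.25 ± 0.04 on the log2 scale (limma adjusted p = 0.00111, 0.00170 and 0.00273). Plk1, Aurkb and Mki67 did not pass the test, with log2 fold changes of 0.13, 0.11 and 0.11.

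Of 48 genes of DNA replication and nucleotide supply 13 were higher and 0 lower (median 0.11), and 3 to 6 were higher where a water library was left out: 6 without Neo 1, 5 without Neo 2, 3 without EGFR 1 and 4 without EGFR 2. Without a variance trend 7 were, and without an EGF 3 h library 19 were. Tyms, which makes thymidylate, was at 103 and 106 FPKM in the Neo libraries and 127 and 129 FPKM in the EGFR libraries (0.29 ± 0.04; limma adjusted p = 0.00134), and Rfc3, a subunit of the clamp loader, was at 46.9 and 46.4 against 54.7 and 56.4 FPKM (0.25 ± 0.04; limma adjusted p = 0.00384). Both EGFR libraries were above both Neo libraries in these genes. The 6 genes of the replicative helicase, Mcm2 to Mcm7, did not pass the test, with log2 fold changes from -0.06 (Mcm2) to 0.10 (Mcm5). The CDK inhibitor gene Cdkn1a, which encodes p21 and slows entry into S phase, was at 19.2 and 18.5 FPKM in the Neo libraries and 14.7 and 15.0 FPKM in the EGFR libraries, lower in both EGFR libraries (-0.32 ± 0.04; limma adjusted p = 9.70e-04). Of the 24 genes of CDK inhibitors and p53 targets 3 were higher (Cdkn2c, Cdkn2d and Gadd45b) and 3 lower (Cdkn1a, Phlda3 and Btg2), and the median was 0.03. These were 12.5% in each direction, beside 5.84% higher and 4.86% lower over all genes. Only Cdkn1a among them kept the call in all 4 fits. With a water library left out 0 to 3 were higher (0 without EGFR 1 and 1 without Neo 1) and 1 was lower in each fit.

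Among 37 genes of the PI3K and FOXO route, 0 were higher and 4 lower (median -0.06), the last being Fbxo32, which lost the call without Neo 1, EGFR 1 or EGFR 2. All 4 are from the part of the list that holds FOXO targets, and 0 of its 16 factors were called. Txnip, which curbs glucose uptake and binds thioredoxin, was at 55.1 and 61.4 FPKM in the Neo libraries and 37.3 and 36.2 FPKM in the EGFR libraries (-0.65 ± 0.06; limma adjusted p = 4.79e-05). Cited2, a transcriptional coregulator that competes with HIF for its coactivator, was at 7.46 and 7.39 against 5.41 and 5.45 FPKM (-0.39 ± 0.05), and Tob1, an antiproliferative gene, was at 15.3 and 14.8 against 11.2 and 11.7 FPKM (-0.36 ± 0.05). The EGFR libraries were the lower ones in all 3. Of 32 lysosome and autophagy genes 8 were lower and 0 higher (median -0.09), but without EGFR 1 or EGFR 2 0 were lower, without Neo 1 1 was and without Neo 2 5 were. With another scaling or without an EGF 3 h library 12 were lower. Of 45 proteasome genes 7 were higher and 0 lower (median 0.09), and without Neo 1, EGFR 1 or EGFR 2 0 were higher, and without Neo 2 4 were. With only the 4 water libraries 15 were higher, without an EGF 3 h library 16, and without the FPKM filter or the variance trend 3. In the 76 genes of the mitochondrial ribosome 7 were higher and 1, Mrpl45, was lower (median 0.06), with 0 to 3 higher where a water library was left out: 3 without Neo 1 or Neo 2, 1 without EGFR 1 and 0 without EGFR 2. Mrpl45 lost the call with any of the water libraries left out. Without a variance trend 2 genes of this list were higher. In the main fit the list had 9.21% higher and 1.32% lower, beside 5.84% and 4.86% over all genes. Of 80 genes of the cytosolic ribosome 0 were higher and 1 was lower (median 0.05). That gene, Rpl28, lost the call without Neo 1, EGFR 1 or EGFR 2, and 1 to 6 genes of the list were higher after the libraries were scaled in 3 other ways 13 when only the 4 water libraries were fitted and 8 without an EGF 3 h library.

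**Figure D4:**
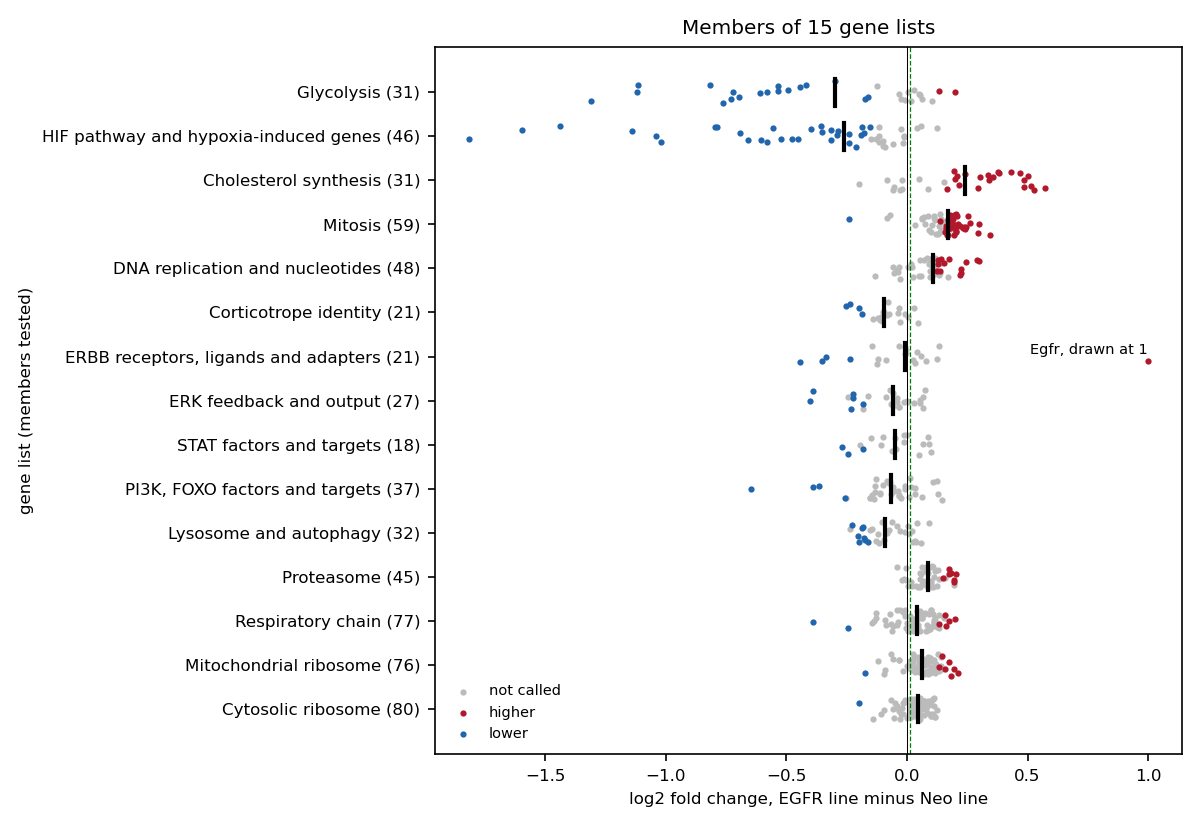
Log2 fold change of each tested member of 15 gene lists, with members called higher in red, called lower in blue and not called in grey, a black bar at the median of the list and a dashed line at the median of all 9140 genes. The glycolysis and HIF lists reach far to the left, the cholesterol, mitosis and replication lists lie to the right, and Egfr is drawn at 1 although its value is 4.60.

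Outside these pathways, the rule for named genes gave 2 more of the 12 largest decreases and 3 more of the 12 largest increases. Upk3a (ENSMUSG00000022435, on the plus strand of chromosome 15 between 85017141 and 85022560), a membrane protein known from the bladder lining, was at 8.61 and 10.6 FPKM in the Neo libraries and 2.39 and 2.44 FPKM in the EGFR libraries (-1.63 ± 0.10; limma adjusted p = 3.15e-06). Selenbp1, a selenium-binding protein that oxidises methanethiol, was at 7.31 and 8.41 FPKM in the Neo libraries and 2.73 and 2.58 FPKM in the EGFR libraries (-1.27 ± 0.08; limma adjusted p = 6.49e-06), and its whole transcript (100%) is shared with its copy Selenbp2, so the source of its reads is uncertain. Both were lower in each EGFR library than in each Neo library, as the rule required. Among the increases, Fkbp11, a folding factor of the secretory pathway, was at 4.56 and 4.25 FPKM in the Neo libraries and 6.39 and 6.20 FPKM in the EGFR libraries (0.43 ± 0.05; limma adjusted p = 9.70e-04). Traip, a ubiquitin ligase that unloads stalled replisomes, was at 13.7 and 13.5 against 19.3 and 17.5 FPKM (0.41 ± 0.06), and Akr1c14, a steroid-metabolising aldo-keto reductase, was at 53.1 and 50.3 against 68.4 and 68.6 FPKM (0.40 ± 0.04). The EGFR libraries were the higher ones in all 3, again as the rule required.

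The libraries of the EGFR line with EGF show where these levels stood under treatment. They share the line, and a comparison of EGF with water would share the EGFR water libraries, so the levels are set side by side without a test. Bnip3, at 191 and 201 against 60.4 and 68.0 FPKM in Neo and EGFR water, was at 61.5 and 59.6 FPKM with EGF for 3 h and 72.1 and 62.3 FPKM for 18 h. Slc16a3 was at 38.4 and 36.8 FPKM at 3 h and 39.4 and 35.4 FPKM at 18 h, and Ldha at 343 and 352 FPKM and 376 and 363 FPKM. All of these values were below both Neo libraries. Bhlhe40, at 7.03 and 6.46 against 2.92 and 2.15 FPKM in water, was at 9.61 and 10.6 FPKM with EGF at 3 h and 7.29 and 6.67 FPKM at 18 h, close to or above Neo. Errfi1 was at 14.7 and 16.0 FPKM at 3 h and 13.6 and 12.9 FPKM at 18 h, and Maff at 10.2 and 10.7 FPKM and 14.2 and 14.1 FPKM, all above both Neo libraries. Mvk was at 28.2 and 31.5 FPKM at 3 h and 25.7 and 27.0 FPKM at 18 h, Idi1 at 107 and 102 FPKM and 64.5 and 65.7 FPKM, so that the 18 h values of both lay between those of EGFR water and of the higher Neo library. Kif11 was at 49.5 and 50.8 FPKM at 3 h and 43.1 and 44.2 FPKM at 18 h, and Cdkn1a at 19.3 and 18.8 FPKM and 18.5 and 18.5 FPKM. Egfr itself was at 28.8 and 30.6 FPKM at 3 h and 31.9 and 30.3 FPKM at 18 h.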

How the data were processed

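The authors deposited FPKM for 12193 gene loci in each library, and the values were used as deposited. The submitters' processing notes name the mm10 build, Trimmomatic 0.22, TopHat2 2.0.8, HTSeq 0.5.4 and DESeq. Not given in the sources used here are the program behind the FPKM, how loci were chosen, and strandedness. Low values are fractional estimates, so whole reads could not be recovered and counting intervals are not given. Genes with 1 annotated transcript put the depth roughly at 47900000 to 57000000 fragments per library. FPKM is relative to the library total.

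Biotypes came from GENCODE M21. The members, 38 gene lists, tests and named genes were chosen with earlier results of these data known, so their counts are descriptions. Of 9462 protein-coding loci, 9140 were tested with limma 3.58.1 in R 4.3.3 (moderated test with variance trend) on log2(FPKM + 1), a scale that understates changes of low genes, with all 8 libraries and 4 group means in the fit (residual degrees of freedom 4, prior 6.77), two-sided, with Benjamini-Hochberg adjustment and a threshold of 0.05. The fit was tested on simulated data. Named genes were Egfr, Pomc, Stat3, Socs3 and Tbx19. Named too were the 12 largest increases and 12 largest decreases at a mean of at least 5 FPKM. Their libraries did not overlap between the lines, and they kept the call without each of the 4 water libraries. They have no clone, predicted-gene, pseudogene or Rik name. Each list described added up to 4 called members that kept the call, else up to 2 other called members, or the 2 most expressed. Other genes named were chosen after their values were seen. Some genes of the lists are not reported here. Transcripts were compared with minimap2 2.31, at 95% identity over at least 200 bases. Promoters came from the RefSeq table. Python 3.11.15, NumPy 2.4.6, pandas 2.3.3 and matplotlib 3.10.9 made tables and figures. Alternatives were pseudocount 0.1, no filter or a minimum of 5 FPKM, scaling by median ratios, a common sum or quantiles, a fit of only the 4 water libraries, a block for the replicate number, no trend in the variance, all loci, a threshold of 0.01 and each library left out.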

Additional observations from a re-analysis of the deposited data

How the results depend on the processing

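Of 534 higher and 444 lower genes, a threshold of 0.01 left 118 and 163, and testing all loci with small RNA left 350 and 332. Leaving out each library in turn gave 85 to 695 higher and 142 to 506 lower genes, with the fewest without EGFR 1 and the most without EGF 3 h libraries. A lone library was then assumed to vary like the other groups. Without the FPKM filter 400 were higher and 347 lower. Higher genes were 54.6% of the calls as reported, 46.7% after median-ratio scaling (527 and 602), 44.7% after common-sum scaling (491 and 608) and 60.1% with only the 4 water libraries (602 and 400). Over these scalings the median of all genes ran from -0.01 to 0.01. With the replicate number as a block, 474 were higher and 394 lower. The numbers were not taken to pair the samples, since deviations of same-numbered Neo and EGFR water libraries correlated at r = -0.07 across genes. Of 86 genes named by rule, 0 changed sign with a call, and the 54 that kept the call without each water library were called at 0.05 in every alternative that tested them. Of the 21 other called genes, each lost the call in at least 1 fit. In 18 combinations of gene and setting, a gene not called in the main fit was called instead: Pomc, Socs3, Sdhb or Mdh1. Sdhb and Mdh1 were named by rule as the most expressed members of the TCA cycle list and are not described above.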

Other observations

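Histone genes were described after the data were seen. Of 62 tested genes of the clustered histone families, 40 were higher and 0 lower in the EGFR line, with a median log2 fold change of 0.17, against 5.84% of all genes higher. Only 2 kept the call in each fit without a water library: Hist1h2bk, at 477 and 463 FPKM in the Neo libraries and 552 and 551 FPKM in the EGFR libraries, and Hist1h4j, at 253 and 261 FPKM in the Neo libraries and 302 and 309.6 FPKM in the EGFR libraries. There were 19 higher without Neo 1 or Neo 2, 3 without EGFR 1 and 4 without EGFR 2, and 21 when small RNA loci were tested too. Members of a family are nearly identical (81.7% of the Hist1h2bk transcript is shared), their transcripts mostly lack a poly(A) tail, and their RNA level follows S phase. Along the genome, the window of 25 neighbouring tested genes with the highest median, 0.20, was the histone cluster on chromosome 13 from 21716422 to 23535860 (mm10), where 17 of 25 genes were higher. The lowest window, on chromosome 14, had a median of -0.09. Chromosome 13 had the highest share of higher genes, 49 of 358 (13.7%), and 17 of the 49 lay in the histone window alone. Medians of whole chromosomes ran from -0.01 to 0.03.

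Some lower genes lay outside all lists and were picked after their values were seen, among those that kept the call without each library. Bsg, the chaperone that brings the lactate exporter to the membrane, was at 726 and 769.6 FPKM in the Neo libraries and 496 and 510.3 FPKM in the EGFR libraries, a log2 fold change of -0.57 ± 0.04. Ffar4, a receptor for long-chain fatty acids, was at 31.7 and 29.2 against 18.3 and 17.5 FPKM (-0.73 ± 0.05). Anxa2, a calcium-dependent membrane-binding protein, was at 99.2 and 107 against 68.4 and 69.5 FPKM (-0.57 ± 0.04), and Thra, a thyroid hormone receptor gene, was at 6.63 and 6.59 against 4.68 and 4.47 FPKM (-0.45 ± 0.06). The stress-induced hormone gene Gdf15 was higher, at 24.5 and 25.4 against 32.0 and 31.5 FPKM (0.34 ± 0.04), as was Ddit3, a transcription factor gene of the integrated stress response, at 36.4 and 38.4 against 47.4 and 49.2 FPKM (0.36 ± 0.04). Of 43 tested genes of the ATF4 and amino acid list, 3 were higher and 1 was lower, and 3 or 4 were lower with another scaling. Hes1, a target of the Notch pathway that encodes a transcriptional repressor, was lower in the EGFR line (-0.58 ± 0.08). It was at 4.04 and 4.88 FPKM in the Neo libraries and 2.40 and 2.92 FPKM in the EGFR libraries. With EGF at 3 h it was at 16.2 and 14.8 FPKM.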
